A study of Mus musculus with 2 samples.

Results

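The genes described here are 7 stem cell markers of the adult hair follicle bulge that are not transcription factors: Cd34, Lgr5, Gas6, Ptn, Angptl7, Dab2 and Eps8. They were chosen by name, as all probe sets whose platform annotation gave one of these symbols alone, which found all 7 genes and 16 probe sets among 18193 genes and 45037 non-control probe sets. Expression was measured in 2 cell populations sorted from back skin of CD-1 pups at postnatal day 4, with 1 array each. Both came from animals carrying the K14-RFP and Sox9-EGFP transgenes, in which the keratin 14 promoter drives the red reporter and the green one stands for Sox9. The early bulge population was bright for both reporters, and the non-bulge outer root sheath (ORS) population was gated as red-bright and GFP-negative. The labels do not give the number of pups behind each sort. With 1 array per population no test was possible, so the ratios stand without replicates and without p-values.

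The bulge is the niche in the outer root sheath where follicle stem cells reside, and it forms while the first hair grows. In adult mice its cells are recognised by proteins on their surface, by factors they secrete and by adaptor proteins inside the cell. Cd34 and Lgr5 are surface proteins, Gas6, Ptn and Angptl7 are secreted, and Dab2 and Eps8 are adaptors of the cytoplasm, so the list is not one of surface and secreted proteins alone. CD34 protein is known to appear in the bulge only once follicles have matured, whereas Lgr5 marks stem cells of the lower bulge and hair germ and is also active in the lower outer root sheath of growing follicles.

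The values are MAS5 signals, linear intensities per probe set that had been scaled to one target on both arrays. Signals below 57.8, the 40th percentile of all non-control signals, were set to that floor and have no order among themselves. Printed signals and summed signals are the values before this step. A gene is represented by its brightest probe set, and each ratio is the early bulge signal divided by the ORS signal. The floor was reached by 62.0% of the non-control probe sets in early bulge cells and by 58.0% in ORS cells. The keratinocyte markers Krt5 (21638 and 14212), Trp63 (17069 and 12955), Dsp (15503 and 12517) and Krt14 (14706 and 6609) were bright in early bulge and ORS cells, and Sox9, the gene behind the green gate, had signals of 4061 and 676, with 2 other probe sets at log2 ratios of 1.07 and 0.30. Spread between probe sets, though neither biological spread nor spread between sorts or arrays, can be read from genes with several probe sets. Between the brightest and the second brightest measured probe set of 6172 genes, the log2 ratio differed with an SD of 0.55. The median absolute difference was 0.27.

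As a group the 7 markers did not lie on one side. By the brightest probe set, the signal was higher in early bulge cells for the secreted factors Gas6, Ptn and Angptl7. By the same measure it was higher in ORS cells for Cd34 and Eps8. The dimmest probe set of Eps8 had the opposite sign. Lgr5 was nearly level (log2 ratio -0.11), and Dab2 had no settled direction. All 7 reached the floor on at least 1 array. Angptl7 was at least 2-fold higher in early bulge cells, 1 of 7 beside a background of 7.3% of 13252 measured genes. Cd34 was at least 2-fold higher in ORS cells, 1 of 7 beside 4.78%. The other 5 were less than 2-fold apart. These backgrounds depend on the scaling: of all genes 2-fold apart 60.4% were higher in early bulge cells, against 40.9% after median centring, which moved the median log2 ratio of all measured genes to -0.17 from 0.04. The median of the 7 markers was -0.02, beside 0.04 over all measured genes. With whole populations on each array, fewer cells carrying a transcript and less transcript per cell cannot be told apart.

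**Figure D1:**
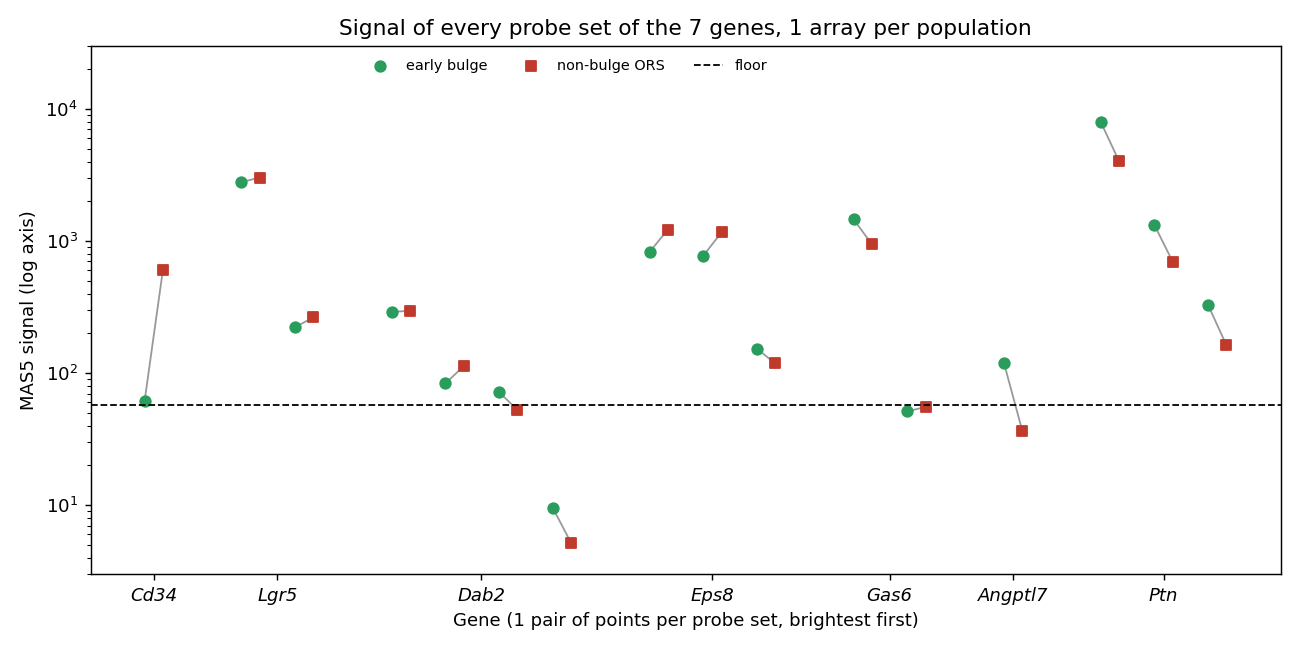
MAS5 signal (log axis) of each of the 16 probe sets of the 7 genes, with the early bulge array as green circles and the non-bulge ORS array as red squares; the dashed line is the floor of 57.8. The 3 pairs of Ptn are all higher in early bulge cells by about the same amount, and Cd34 sits just above the floor in early bulge cells and at 603 in ORS cells.

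Among the surface proteins, Cd34 had by far the widest gap of the 7 genes. Its 1 probe set gave a signal of 61.8 in early bulge cells and 603 in ORS cells. The first value lies just above the floor and the second well above it, a ratio 9.75-fold lower in early bulge cells (log2 ratio -3.29). Of the 13252 measured genes, 39 including Cd34 (0.294%) had a ratio this low or lower. No further probe set of Cd34 was present to compare it with. With the floor at the 60th percentile, a signal of 171.8, the log2 ratio was weaker, at -1.81. Cd34 encodes a sialomucin that is also carried by dermal fibroblasts, endothelial cells and mast cells.

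Markers of connective tissue were far higher in ORS cells beside Cd34. All 10 measured dermal fibroblast markers of 11 listed were at least 2-fold higher there, with a median log2 ratio of -3.47 and a range of -4.90 to -1.66, and their summed signal was 5405 in early bulge cells and 59439 in ORS cells. The brightest of them were the collagen chains Col3a1 (1378 and 16726) and Col1a2 (1079 and 14484), the proteoglycan Dcn (1230 and 11512) and the filament protein Vim (792 and 5950), each given for early bulge and then ORS. A second probe set of Dcn gave a log2 ratio of only -0.21. Pdgfra, named after its values were seen, was below the floor in early bulge cells (11.3) and at 738 in ORS cells. Its 2 other measured probe sets gave log2 ratios of -0.43 and -0.08. The ratio of Cd34 lies inside the range of this list. The part of fibroblast RNA in the Cd34 difference was not tested.

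Markers of endothelium and mast cells, which also carry Cd34, and of immune cells were mostly below or near the floor. Of 8 endothelial markers, 5 were below the floor on both arrays, among them the defining Pecam1 (9.41 and 11.9) and Cdh5 (22.6 and 24.8). Of the 3 measured, Tek had signals of 70.0 and 285.9, Kdr of 18.0 and 76.6, and Eng of 136.1 and 121.0 in early bulge and ORS cells. Tek was the 1 endothelial marker at least 2-fold apart, well above the floor and higher in ORS cells (log2 ratio -2.03). The median of the 3 was -0.41, or -2.03 without a floor. The part of endothelial RNA in the Cd34 difference was not tested. The summed signal of all 8 was 282 in early bulge cells and 584 in ORS cells. All 5 mast cell markers, including Cpa3 (54.9 and 14.6), were below the floor on both arrays, with summed signals of 154 and 114. Those sums hold only values below the floor and have no order. Of 8 macrophage and other immune markers none was 2-fold apart, 4 were below the floor on both arrays, including the pan-leukocyte Ptprc (47.0 and 28.5), and the summed signals were 648 and 501.

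Further marker lists placed more cell types beside the 7 genes. Of 7 markers of pericytes and smooth muscle, 5 had signals at least 2-fold higher in ORS cells, led by Tagln (114 and 3889) and Acta2 (1299 and 11143). The median log2 ratio was -1.35, or -2.82 without a floor. The summed signal was 1750 in early bulge cells and 16035 in ORS cells. Rgs5 (125 and 319) was among the 5, but another of its probe sets gave a log2 ratio of 0.74. Des, named after its values were seen, went the other way (94.5 and 55.9, the latter below the floor). Of 6 measured dermal papilla markers 3 were at least 2-fold higher in ORS cells (median -1.22, summed signal 1933 and 4369). Alpl, named after its values were seen, went the other way (88.7 and 52.0, the latter below the floor). Sox2 (16.6 and 17.9) and Crabp1 (11.5 and 24.6) were below the floor on both arrays. Of 6 hair germ and matrix genes 3 were at least 2-fold higher in ORS cells (median -1.68, summed signal 2068 and 7288), a median that was -0.80 with the second brightest probe sets. None of 7 melanocyte markers was 2-fold apart (median 0.21, summed signal 2837 and 2578). The 6 keratinocyte markers were all higher in early bulge cells, 1 of them, Krt14, by at least 2-fold (median 0.65, summed signal 75286 and 49775).

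**Figure D2:**
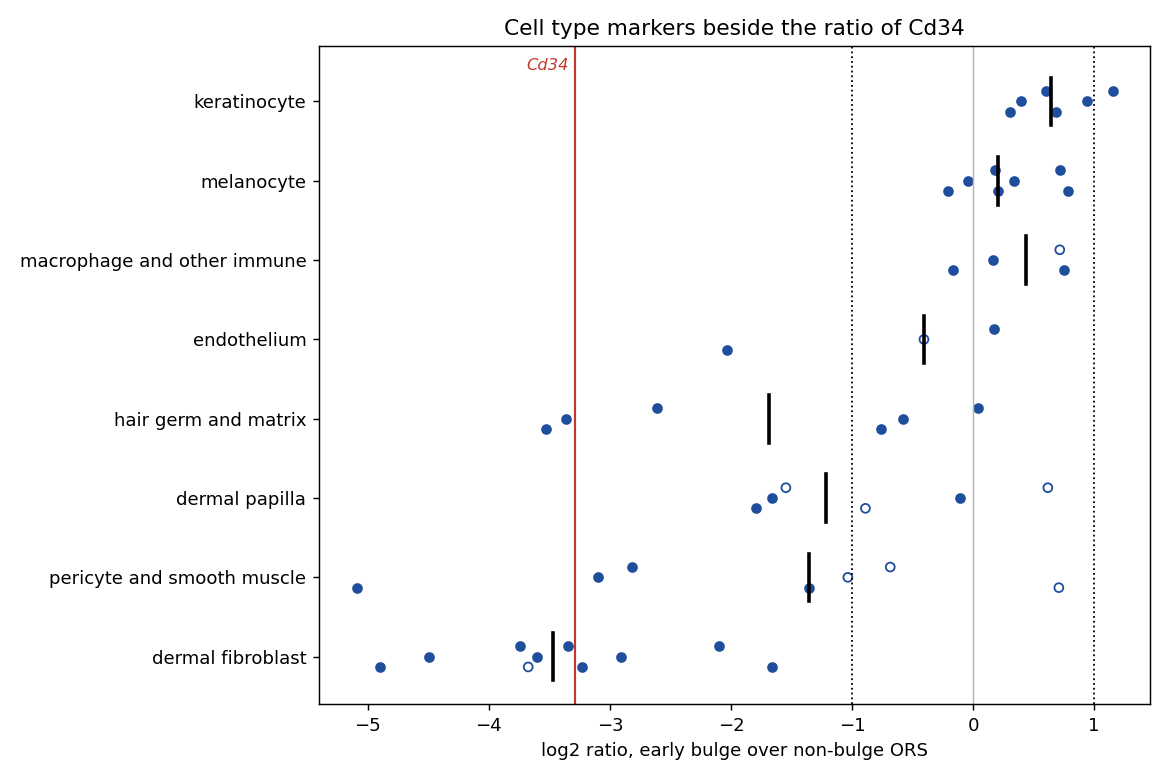
Log2 ratio (early bulge over non-bulge ORS) of measured markers of 8 cell types; each point is a gene, open points have 1 array at the floor, black bars are medians, dotted lines mark 2-fold and the red line is Cd34 at -3.29. All dermal fibroblast points lie left of the 2-fold line on both sides of the Cd34 line, and keratinocyte points lie right of 0.

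The relatives of Cd34 lay on the other side. The related sialomucin Podxl had signals of 112 and 48.0 in early bulge and ORS cells, at least 1.93-fold higher in early bulge, and another of its probe sets gave a log2 ratio of 0.21. Podxl2, also of that family, had signals of 356 and 214, a ratio of 1.66-fold. Of 5 listed relatives and partners 3 were measured, none of them 2-fold apart, with a median of 0.73. The genes whose pair of signals lay closest to that of Cd34 on the log2 scale were Piwil2 (68.2 and 565, at a distance of 0.17) and Pid1 (60.2 and 524, at 0.20), and 3 genes in all lay within 0.25. Likeness over 2 arrays is a loose measure.

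Lgr5, a receptor for R-spondins that strengthens Wnt signalling, was nearly level between the populations. Its brightest probe set gave 2795 in early bulge cells and 3017 in ORS cells, and its second gave 222 and 264. The log2 ratios of -0.11 and -0.25 had the same sign and were smaller than the spread of 0.55 between probe sets of one gene. Of all measured genes 82.2% lay at least as far from 0 as the first of them. A total of 230 genes lay within 0.25 of Lgr5 on the log2 scale, the closest being Poglut2 and Ndufs1.

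Its sister receptor Lgr6, a marker of stem cells of the upper follicle, had a wider gap. Its signals were 7155 in early bulge cells and 2135 in ORS cells, 3.35-fold higher in early bulge, and a second probe set gave a log2 ratio of 1.43. Of the 8 measured of 10 genes of the Lgr5 receptor system, Lgr6 was the only one at least 2-fold apart in either direction. Lgr4, the remaining receptor of the family, had signals of 7338 and 5938 (log2 ratio 0.31). Among the R-spondin ligands, Rspo3 was below the floor in early bulge cells (34.2) and at 107 in ORS cells. The ubiquitin ligase Znrf3, which removes Wnt receptors and is itself blocked by R-spondins, had signals of 2107 and 2434. Lgr4 and Znrf3 were named after their values were seen. The median of the 8 was 0.10.

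Among the secreted factors, Ptn was the only one with a ratio from more than 1 probe set. Ptn encodes pleiotrophin, a heparin-binding growth factor. The brightest probe set gave 7973 in early bulge cells and 4034 in ORS cells, the second 1321 and 697, and the dimmest 327 and 163. Early bulge was higher on each of the 3, by 1.98-fold, 1.90-fold and 2.01-fold. The log2 ratios of 0.98, 0.92 and 1.01 differed among themselves by far less than the SD of 0.55 across genes. The brightest lies just under 2-fold, and 12.5% of all measured genes lay at least as far from 0. After loess scaling it was 1.02, just over 2-fold. The closest genes in signal were Ccn2 (7675 and 4041) and Aco1 (7588 and 4167), with 17 genes within 0.25.

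Receptors and relatives of pleiotrophin went both ways. Of 9 listed 8 were measured, with a median log2 ratio of 0.22. The receptor phosphatase Ptprz1 was the only one 2-fold apart by its brightest probe set, with signals of 487 in early bulge cells and 1276 in ORS cells, 2.62-fold lower in early bulge, and a second probe set gave a log2 ratio of -0.83. The next largest ratio was that of the co-receptor Nrp1 (1259 and 733, log2 ratio 0.78), whose 3 other measured probe sets ran from 0.74 to 1.55. Probe sets of Ncl, which encodes nucleolin and was named after its values were seen, ran from -1.19 to -0.45, so for these genes the 2-fold call depends on the probe set. The paralogue Mdk, which encodes midkine and was named likewise, had signals of 334 and 218 (log2 ratio 0.62). The receptor kinase Alk, also outside the naming rule, was below the floor on both arrays (30.9 and 7.80).

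Gas6, a vitamin K-dependent ligand of the receptor kinases Tyro3, Axl and Mertk, was moderately higher in early bulge. Its brightest probe set gave 1457 in early bulge cells and 945 in ORS cells, a 1.54-fold difference (log2 ratio 0.63). Its second probe set was below the floor on both arrays (51.3 and 55.5) and gives no ratio. The log2 ratio is of the size of the spread between probe sets, and 27.1% of all measured genes lay at least as far from 0.

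The Gas6 receptors were split between the populations. Axl had signals of 267 in early bulge cells and 583 in ORS cells, 2.19-fold lower in early bulge. Mertk had signals of 1278 and 876 (log2 ratio 0.54) and Tyro3 of 102 and 74.6 (0.45), both named after their values were seen. Pros1, which encodes protein S, a relative of Gas6 that also binds Tyro3 and Mertk, had signals of 465 and 175.3, 2.65-fold higher in early bulge. Of the 5 genes of this list 1 was thus at least 2-fold higher in each population, with a median of 0.53. Axl is also expressed by fibroblasts, whose markers were higher in ORS cells as given above. Their part in its difference was not tested.

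Angptl7, a secreted angiopoietin-like protein, was dim. Its 1 probe set gave 119 in early bulge cells and 36.6, below the floor, in ORS cells, at least 2.05-fold higher in early bulge. Of all measured genes 6.92% had a ratio at least as high. The call is a close one, with log2 ratios of 0.91 to 0.94 under the 3 other scalings, all under 2-fold, and with the floor at the 60th percentile the gene was not measured at all. Of 5 other angiopoietin-like genes listed 3 were measured and none was 2-fold apart by its brightest probe set. Angptl6 (159 and 97.2, log2 ratio 0.71) and Angptl1 (139 and 102, 0.45) had the largest ratios, and the median was 0.45. A second probe set of Angptl1 gave -0.39. Angptl4, named after its values were seen, had signals of 4017 and 3372 (log2 ratio 0.25), and its second probe set was past 2-fold at 1.01.

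The adaptor Dab2 links cargo receptors to clathrin and takes part in TGF-beta signalling. Its brightest probe set gave 292 in early bulge cells and 296 in ORS cells, a log2 ratio of -0.02, and 96.8% of all measured genes lay at least as far from 0. The second gave 83.7 and 112.6 (log2 ratio -0.43). A further one gave 71.7 in early bulge cells and 52.7, below the floor, in ORS cells, and the last was below the floor on both arrays (9.50 and 5.18). The 2 dimmer measured probe sets thus pointed opposite ways, and no direction is given for Dab2. Among 8 measured relatives and endocytic partners none was 2-fold apart (median -0.11). The receptor Tgfbr1 (1764 and 3268, log2 ratio -0.89) and the myosin Myo6 (509 and 310, 0.71) had the largest ratios. Dab2 is also known from fibroblasts and macrophages, and the part of their RNA in its signal was not tested.

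Eps8, an actin-capping adaptor and substrate of the EGF receptor, was lower in early bulge on its bright probe sets. The brightest gave 826 in early bulge cells and 1219 in ORS cells, and the second 775 and 1161, so ORS was higher on each, by 1.48-fold and 1.50-fold. The dimmest one gave 153 and 118, with the opposite sign (log2 ratio 0.37, against -0.56 and -0.58). This dim probe set carries the suffix for alternative transcripts of one gene, and the brightest carries the suffix for probes shared between transcripts. Of all measured genes 31.6% lay at least as far from 0 as the brightest. None of the 8 relatives and partners of Eps8 was 2-fold apart (median 0.01), and the largest ratios were those of Baiap2 (408 and 259, log2 ratio 0.66) and Abi1 (2602 and 2010, 0.37). The 3 other measured probe sets of Baiap2 ran from -0.12 to 0.68, and the 2 of Abi1 from -0.24 to 0.35.

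**Figure D3:**
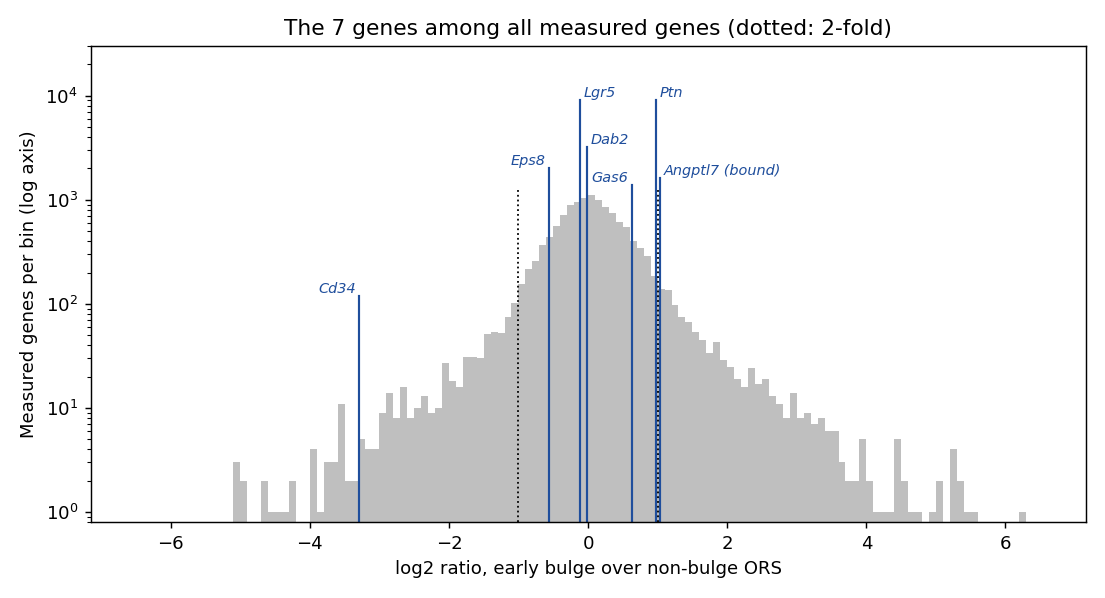
Histogram (log axis, bins of log2 ratio) of the log2 ratios, early bulge over non-bulge ORS, of all 13252 measured genes, with the 7 genes as blue lines and dotted lines at 2-fold; line heights only separate the names. Cd34 lies in the left tail at -3.29, Ptn and the bound of Angptl7 at the right dotted line, and the other 4 within 2-fold.

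Over all 7 lists of relatives and partners together, 43 of 53 genes were measured. Of these 2 (Lgr6 and Pros1) were at least 2-fold higher in early bulge cells and 2 (Axl and Ptprz1) in ORS cells, beside the backgrounds of 7.3% and 4.78% of measured genes given above, and 39 were less than 2-fold apart. Their median log2 ratio was 0.14.

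Other genes of the adult bulge, most of them transcription factors and matrix or signalling proteins, had more members past 2-fold, although no test of that difference was possible. Of 24 measured 10 were at least 2-fold higher in early bulge cells and 2 in ORS cells, beside 7.3% and 4.78% of all measured genes. One of the 10 is Sox9, whose reporter defined the sort. The others, with log2 ratios, are Foxc1 (5.25), Nfatc1 (5.01), Npnt (4.10), Sostdc1 (3.96), Fst (3.01), Col17a1 (2.38), Sfrp1 (1.30), Dkk3 (1.28) and Itga6 (1.07). Other probe sets of Sfrp1 ran from 0.53 to 1.96. The median log2 ratio of the list was 0.71, beside 1 and 1 of 7 past 2-fold and a median of -0.02 for the markers described here. The list was drawn up with results of these data known and its counts are no independent evidence. Among surface proteins on it, the integrin chain Itga6, used with CD34 to sort adult bulge cells, had signals of 6969 in early bulge cells and 3314 in ORS cells, 2.10-fold higher in early bulge, and its second probe set gave a log2 ratio of 1.45. Cd200, a surface glycoprotein that marks human bulge cells and was named after its values were seen, had signals of 879 and 777 (log2 ratio 0.18). The integrin chains Itgb1 (888 and 952, log2 ratio -0.10) and Itgb6 (256 and 231, 0.15), named likewise, were also under 2-fold. Past 2-fold in ORS cells were Bmp6 (90.3 and 218) and Hopx (3900 and 9067), a homeodomain protein of quiescent stem cells, with another probe set of Hopx at -0.75.

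**Figure D4:**
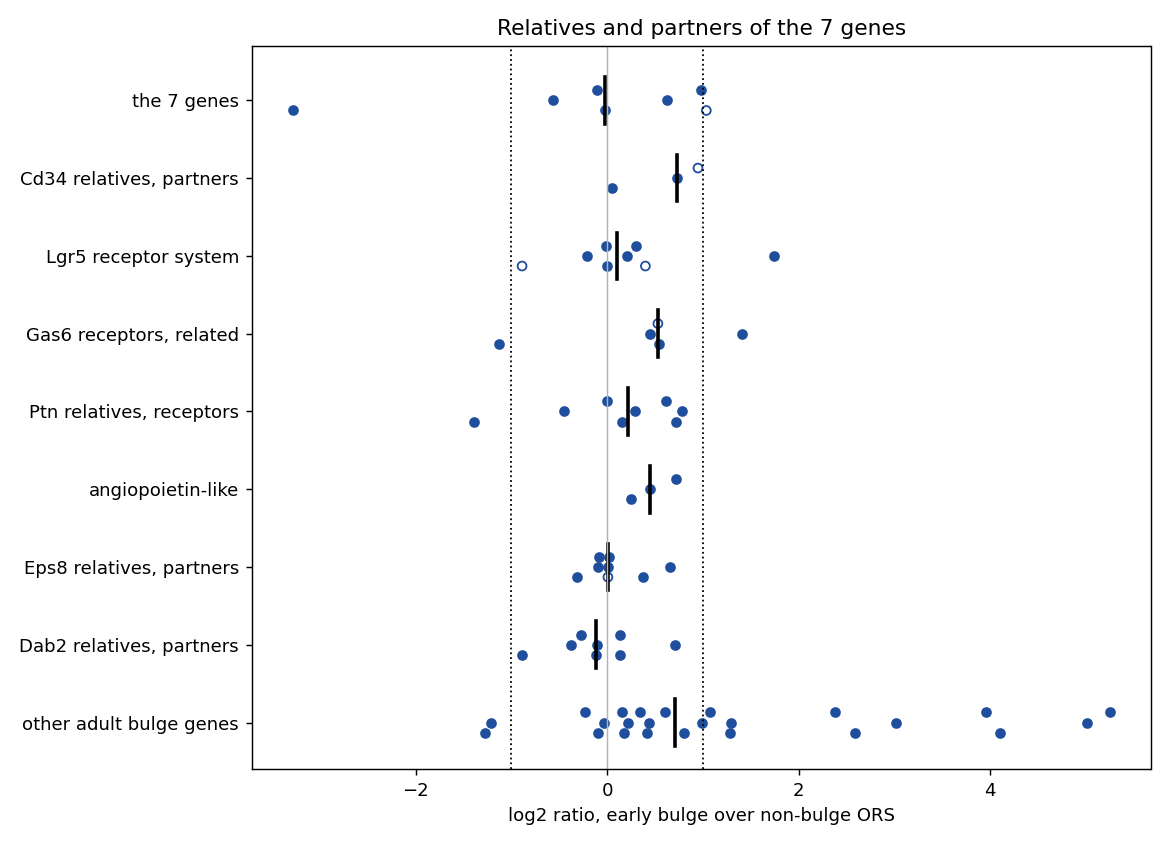
Log2 ratio (early bulge over non-bulge ORS) of the 7 genes, of measured members of 7 lists of their relatives and partners, and of other adult bulge genes; open points have 1 array at the floor, black bars are medians and dotted lines mark 2-fold. Of the partner genes 39 of 43 lie between the dotted lines, while 10 of 24 other adult bulge genes lie to the right of them.

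Sequences upstream of the start sites are shown for the 3 genes with the ratios farthest from 1, because the sort was made on a reporter for Sox9. RefSeq windows (GRCm38.p6) were found for 5 of the 7 genes, 6 windows in all, and not for Lgr5 and Eps8. Each is the 250 bases before the start, 5′ to 3′ on the gene's strand, in lower case with the 5-letter motif ACAAT or its complement ATTGT, the core of sites bound by Sox proteins, in capitals.
Cd34, chr1:194938571-194938820, plus strand: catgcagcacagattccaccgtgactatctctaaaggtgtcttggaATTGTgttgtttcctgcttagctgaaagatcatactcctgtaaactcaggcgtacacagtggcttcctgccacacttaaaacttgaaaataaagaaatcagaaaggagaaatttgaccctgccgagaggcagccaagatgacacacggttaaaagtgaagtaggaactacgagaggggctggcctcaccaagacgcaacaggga
Angptl7, chr4:148500463-148500712, minus strand: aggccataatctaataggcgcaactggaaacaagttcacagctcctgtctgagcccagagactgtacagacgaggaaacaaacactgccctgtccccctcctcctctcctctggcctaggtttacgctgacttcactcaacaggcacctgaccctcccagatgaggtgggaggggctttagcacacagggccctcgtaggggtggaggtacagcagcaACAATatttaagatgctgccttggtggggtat
Ptn, chr6:36810180-36810429, minus strand: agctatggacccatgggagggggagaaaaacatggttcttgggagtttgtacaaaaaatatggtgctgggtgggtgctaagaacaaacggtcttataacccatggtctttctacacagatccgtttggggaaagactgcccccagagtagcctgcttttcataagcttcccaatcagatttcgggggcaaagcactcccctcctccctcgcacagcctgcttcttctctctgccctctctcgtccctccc
The motif stood once in the window of Cd34 and once in that of Angptl7, whose ratios had opposite signs, and not in that of Ptn. It stood in 3 of the 6 windows and in 27.7% of all 32851 windows of that length in the table, on either strand. A match is a description of these letters and not a binding site.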

How the data were processed

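RNA of each sorted population was hybridised to 1 Affymetrix array as biotinylated cRNA, per the labels' protocols. Per the submitters' processing notes, the authors ran MAS5 through Affymetrix Expression Console (no version is named), and what they deposited is 1 linear intensity value for each probe set and array. The 2% trimmed mean of these values was 500.0 on both arrays, so each had been scaled to one target. MAS5 values are noisy at low signal, and detection calls were not used. The authors' genome build is not stated in the sources used here.

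Gene names came from the platform annotation, and all 7 symbols stood under the same Entrez ID in RefSeq. Of the non-control probe sets 34945 had 1 symbol, 932 several and 9160 none, and only the first were used. Signals under the 40th percentile were set to it, and a gene was measured if 1 array reached it. A ratio with 1 array at the floor is a bound. Counts are by size, at 2-fold. The members, lists and rules were chosen with earlier results of these data known. Named genes were all 7 members, partner genes 2-fold apart or with the 2 largest ratios of their list, bright markers, and the 2 genes closest in log2 signal. Exceptions are marked, and some defining markers below the floor are given as values. Alternatives were 3 scalings of the arrays (median centring, quantile, loess with span 0.4), floors at the 20th and 60th percentile, none, or a pseudocount of 18.7, and 3 choices of probe set. The procedure was tested on simulated data. The changes planted there were larger than 2-fold and in bright genes, so calls near 2-fold or near the floor were not covered. Python 3.11.15, pandas 2.3.3 and statsmodels 0.14.6 were used. The number of arrays limits the precision.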

Additional observations from a re-analysis of the deposited data

How the results depend on the processing

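With 1 array per population no replicate could be left out, and no call rests on a test. No paired analysis was possible because each population has 1 array. Past 2-fold in early bulge cells stood 0 of the 7 genes after median centring and after quantile normalization, in place of 1. With the floor at the 60th percentile it was 0 of 6, because Angptl7 was not measured there. After loess scaling the count was again 1, but the gene was Ptn (log2 ratio 1.02) and not Angptl7 (0.91). With the floor at the 20th percentile or none, Angptl7 had a log2 ratio of 1.70. Cd34 stayed at least 2-fold lower in early bulge under all 10 alternatives, with log2 ratios from -3.49 to -1.81. Not all of these could move it. Cd34 has 1 probe set, and both its signals lay above the main floor. The 3 choices of probe set, the lower floor and no floor thus returned -3.29 by construction. Ptn ranged from 0.77 to 1.02, Gas6 from 0.26 to 0.66 (no value with the second brightest probe set), Eps8 from -0.78 to -0.26 and Lgr5 from -0.33 to -0.07, all without a change of sign. Dab2 ranged from -0.43 to 0.14 and changed sign once, with the mean over probe sets. The median of the members ranged from -0.34 with the second brightest probe sets, over 6 genes without Gas6, to 0.14 with the mean over probe sets, over all 7. Genes 2-fold apart over the lists of partners, of other adult bulge genes and of cell type markers numbered 39 of 115 measured. Under the alternatives they ran from 32 of 101 with the second brightest probe sets to 43 of 130 with the floor at the 20th percentile. Of all measured genes, 7.3% were at least 2-fold higher in early bulge cells and 4.78% in ORS cells under the main setting. Low signal over background limits Angptl7 and the early bulge value of Cd34.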
